A study of Rattus norvegicus with 21 samples.

Results

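The axon guidance ligands and receptors of the rat retina were taken as every gene of the count table whose symbol belongs to the semaphorins (Sema3 to Sema7), plexins, Eph receptors, ephrins, Slit ligands, Robo receptors, netrins or Unc5 receptors. The rule used symbols and no measured value, and it found 65 of 19099 genes. All 65 passed the filter on low counts, as did 16006 genes in all. The 65 were 20 semaphorins, 8 ephrins, 3 Slit ligands, 4 netrins, 9 plexins, 14 Eph receptors, 3 Robo receptors and 4 Unc5 receptors. The study sequenced retinal RNA of Sprague Dawley rats kept for 6 months in different light, under a title on dental lighting and disruption of the barrier between blood and retina. The groups, of 3 libraries each, were Blue1000, Blue200 (blue light), Hal1000, Hal200 (halogen light), LED1000, LED200 (LED light) and control. The series text calls a source White where the sample labels say LED, and both were taken as the same source. The labels give an age of 8 months for all groups, no unit for the levels 1000 and 200, and no description of the light of the control animals. They name no genotype or other treatment, and do not say whether the 3 libraries of a group are 3 animals. The tests therefore rest on the spread between libraries alone, which may be technical. Libraries held 30404774 to 35437448 counts.

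Guidance molecules steer growing axons and dendrites. Semaphorins, secreted or held in the membrane, act on plexins, with neuropilins as co-receptors of the secreted class 3. Ephrins are bound to the membrane and signal to Eph receptor tyrosine kinases on the neighbouring cell, with signalling in both directions. Slit proteins repel axons through Robo receptors, and netrins attract them through Dcc or repel them through Unc5. In the developing mouse retina Sema5a, Sema5b, Sema6a and the plexins A keep neurites within the inner plexiform layer, netrin 1 guides ganglion cell axons into the optic nerve head, and graded ephrins and Eph receptors order their endings in the brain. Many of these genes stay on in the adult retina, where they are made by neurons, glia and vessels.

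Promoter windows of the 2 semaphorins that fell most in light (Sema6c and Sema7a) and of the one that rose most (Sema3c) are shown because these 3 genes had the largest called log2 fold changes among the ligands over all light. The windows are the 250 bases before each gene's start in RefSeq (build GRCr8), 5′ to 3′ on the strand of the gene, at chr2:185426236-185426485 (plus strand), chr8:67244068-67244317 (plus strand) and chr4:18699628-18699877 (minus strand). Capitals mark CG dinucleotides.
Sema6c: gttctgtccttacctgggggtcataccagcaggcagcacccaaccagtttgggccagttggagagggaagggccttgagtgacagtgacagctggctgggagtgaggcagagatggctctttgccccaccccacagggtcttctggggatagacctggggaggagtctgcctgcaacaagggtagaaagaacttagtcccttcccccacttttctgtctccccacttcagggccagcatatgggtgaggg
Sema7a: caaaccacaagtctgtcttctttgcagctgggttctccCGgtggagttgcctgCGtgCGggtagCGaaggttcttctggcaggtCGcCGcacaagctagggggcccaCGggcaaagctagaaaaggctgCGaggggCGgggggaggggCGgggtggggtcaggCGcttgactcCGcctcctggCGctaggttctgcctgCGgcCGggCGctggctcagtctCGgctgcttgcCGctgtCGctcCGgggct
Sema3c: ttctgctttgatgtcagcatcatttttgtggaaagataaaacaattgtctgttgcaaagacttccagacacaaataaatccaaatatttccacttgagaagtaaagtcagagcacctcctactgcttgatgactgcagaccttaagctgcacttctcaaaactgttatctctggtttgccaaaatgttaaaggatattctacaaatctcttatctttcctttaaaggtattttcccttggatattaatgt
The Sema7a window held 20 CG dinucleotides and 67.6% G or C. Sema6c and Sema3c held 0 CG dinucleotides each, with 58.4% and 35.2% G or C, against a median of 5 CG dinucleotides and 51.2% over 33469 rat promoters. Of the 65 genes 50 matched a RefSeq promoter. The letters TAATCC, the core of sites bound by the photoreceptor factor Crx, searched on both strands from 250 bases before to 50 bases after the start, occurred in 1 of these 50 windows (Robo3) and in 7.17% of all promoters. They occurred in 0 of the 29 matched genes that were higher in light and in 0 of the 6 that were lower.

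Several facts of the whole series bear on these genes. Summed counts of 16 rod photoreceptor markers were 737.4 to 2890 CPM (counts scaled to a common library size by the TMM method) in every library of the 5 light groups other than Hal200, 36450 to 65970 CPM in Hal200 and 80040 to 88220 CPM in control; at most 1 of the 16 was at 0 in any library. The 10 cone photoreceptor markers summed to 348.3 to 827.5 CPM in those 5 groups and 1082 to 1253 CPM in Hal200. In control the cone sum was higher, at 1291 to 1346 CPM. Summed markers of several other cell types were higher in light. The 14 ganglion cell markers summed to 2390 to 2784 CPM in those 5 groups and 1851 to 2263 CPM in Hal200, against 1397 to 1522 CPM in control, with none of the 14 at 0. The 12 amacrine markers summed to 5250 to 5827 CPM in the 5 groups and 3874 to 4299 CPM in Hal200, against 3302 to 3428 CPM in control, with none at 0. The 12 Müller glia markers in the table summed to 12140 to 15180 CPM in the 5 groups and 9929 to 12060 CPM in Hal200, against 8990 to 10820 CPM in control, with none at 0. Summed endothelial markers were 1264 to 1631 CPM in the 5 groups and 976.4 to 1283 CPM in Hal200, against 890.2 to 933.8 CPM in control. The 5 astrocyte markers summed to 609.9 to 1103 CPM in the 5 groups and 396.8 to 818.5 CPM in Hal200, against 288.1 to 323.1 CPM in control, and the 12 microglia markers to 157.1 to 321.3 and 142.6 to 290.3 CPM, against 102 to 129.8 CPM in control. The 18 bipolar cell markers, used below for scaling, summed to 3234 to 4812 CPM in the 5 groups and 3119 to 3726 CPM in Hal200, against 2888 to 3249 CPM in control. LED1000 replicate 3 (3234 CPM) and the lowest Hal200 library (3119 CPM) lay within that control range. Pigment epithelium markers are given beside Sema3c. The part of these shifts in the results below was not tested, and in bulk tissue fewer cells of a type and less RNA per cell cannot be told apart. Blue200 replicate 1, LED200 replicate 1 and control replicate 3 carried the most lens RNA (1.01%, 0.449% and 0.524% of their counts). In 3 libraries (LED1000 replicate 2, Blue1000 replicate 3, Hal1000 replicate 3), called in-between libraries here, 94.9 to 98.3% of the genes with a 2-fold difference between the other two of the group had an intermediate value. In the other libraries this share was 23.3 to 80.8%. If an in-between library is not independent of its mates, the spread and the tests of its group rest on fewer than 3 libraries.

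Taken over all 6 light groups, most guidance genes were higher than in control and a few semaphorins and receptors were much lower. Of the 65 genes 47 passed the test (edgeR quasi-likelihood test, Benjamini-Hochberg adjusted p under 0.05 over 16006 genes), which is 72.3% against 58.6% of all genes. The 47 were 40 higher and 7 lower, that is 61.5% and 10.8% of the 65, against 29.4% and 29.2% of all genes. The median log2 fold change of the 65 was 0.48, against 0.04 over all genes. By family, 14 semaphorins were higher and 4 lower of 20, 5 ephrins higher and 1 lower of 8, 1 Slit of 3 and 3 netrins of 4 higher with none lower. Among receptors 4 plexins were higher and 1 lower of 9, 8 Eph receptors higher and 1 lower of 14, and 2 Robo of 3 and 3 Unc5 of 4 higher with none lower. The 40 rises were small, with log2 fold changes of 0.24 to 1.88 and a median of 0.63, and only Sema3c exceeded 2-fold. Of the 7 falls 4 exceeded 2-fold.

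The count of rises depended on how libraries were scaled. When each library was scaled to the summed counts of a list of bipolar cell markers, the median log2 fold change of all genes in this comparison shifted by -0.38 and 25 of the 65 were called, 14 higher and 11 lower, against 10.7% of all genes higher and 47.8% lower under the same scaling. The 14 were all among the 40, namely Sema3a, Sema3c, Sema4g, Sema5a, Sema6b, Sema6d, Plxna4, Epha4, Epha5, Epha10, Ephb2, Ephb3, Ephb6 and Robo2, and 34 of the 40 kept a positive fold change. The 7 genes that were lower stayed lower under this scaling, joined by Epha7, Ephb1, Plxna2 and Plxna3. After that shift, the median of the 65 was 0.09 against -0.35 over all genes.

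**Figure D1:**
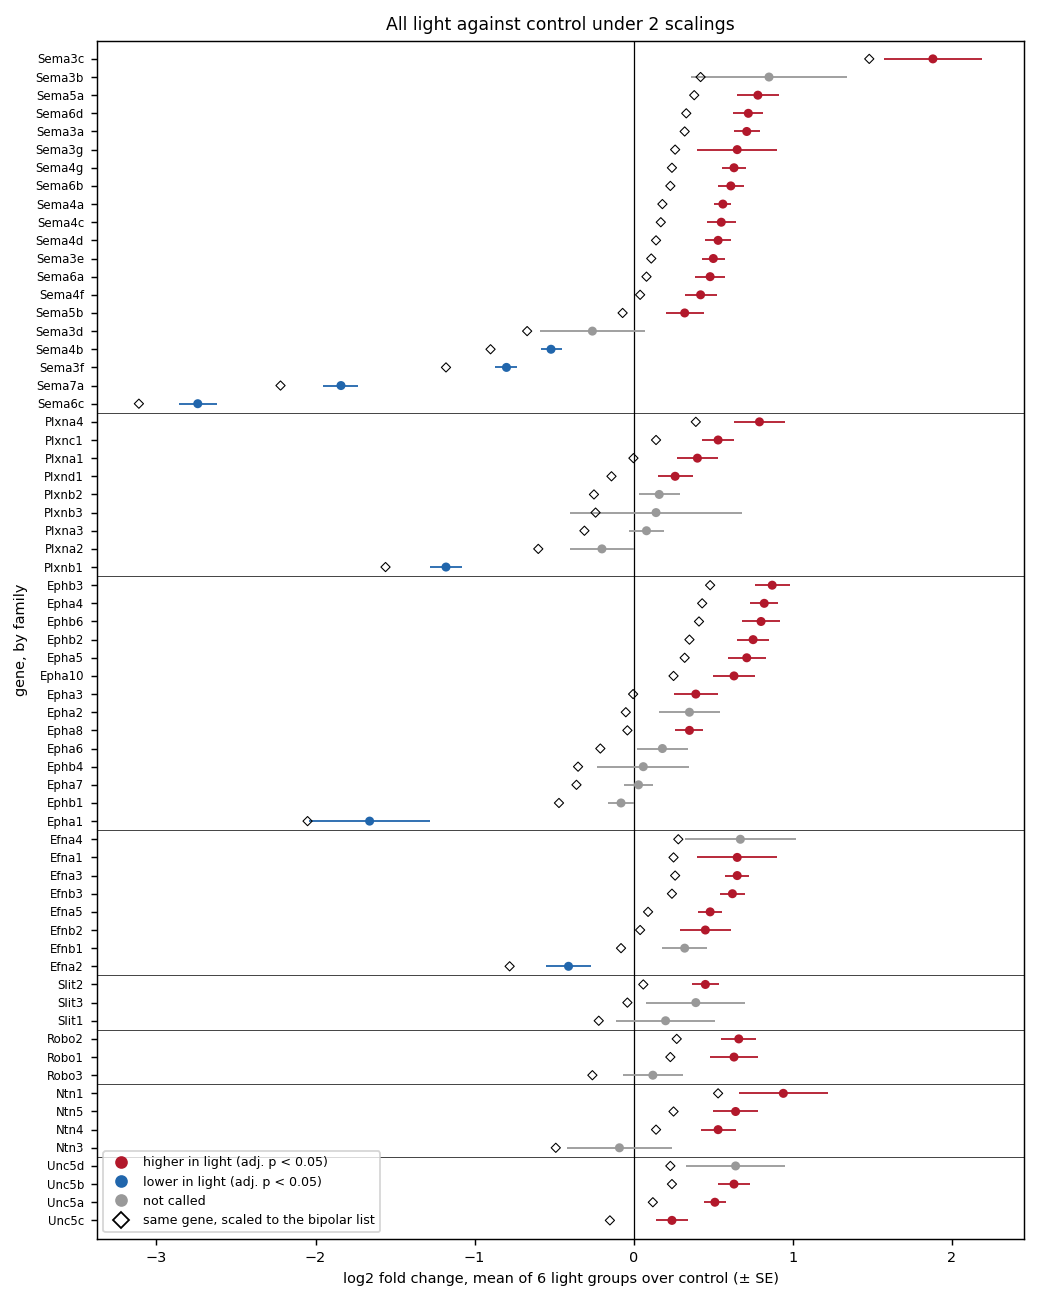
Log2 fold change of each of the 65 genes, all light over control, with its standard error (circles, TMM scaling) and the same value with libraries scaled to the bipolar list (open diamonds). Circles of 40 genes are called higher and of 7 lower; the diamonds lie to the left of the circles, and Sema6c, Sema7a, Epha1 and Plxnb1 stay lower by more than 2-fold under both scalings.

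Among the ligands, the semaphorins held both the largest fall and the largest rise. Sema6c, a transmembrane semaphorin of class 6, had 59.3, 56.1 and 58.2 CPM in Blue1000, 51.1, 50.7 and 47.7 in Blue200, 59.3, 48.7 and 53.4 in Hal1000, 201, 246 and 397 in Hal200, 49.0, 46.1 and 49.9 in LED1000 and 45.6, 63.5 and 51.2 in LED200, against 525, 508 and 357 in control. The 15 libraries outside Hal200 were all below every control library and every Hal200 library, and 1 Hal200 library overlapped control. Its log2 fold change over all light was -2.74 ± 0.12 (SE; adjusted p = 2.4e-12, edgeR), a 6.67-fold fall, and it was called lower in each of the 6 light groups. Sema7a, which is anchored in the membrane by a lipid and binds plexin C1 and β1 integrins, had 97.5, 112 and 105 CPM in Blue1000, 92.2, 99.5 and 98.0 in Blue200, 111, 112 and 110 in Hal1000, 184, 260 and 409 in Hal200, 102, 104 and 95.8 in LED1000 and 109, 110 and 104 in LED200, against 471, 394 and 454 in control. Per length, Sema7a stood at 101 ± 36.8 FPKM in Hal200 and 38.3 to 43.7 FPKM on average in the other light groups, against 147 ± 13.6 FPKM in control (counts per length and library total, SD, n = 3). Hal200 replicate 3 overlapped control, and all libraries of the other 5 light groups were below it. Sema7a fell by 1.84 ± 0.11 on the log2 scale over all light (adjusted p = 2e-10, edgeR) and was called lower in each light group.

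The Hal200 libraries of these 2 semaphorins differed among themselves. Replicate 3 had the highest Sema6c and Sema7a counts of that group and the highest summed rod markers (65970 CPM), and replicate 1 had the lowest of all 3 measures, with 36450 CPM of rod markers. The part of the rod markers in this spread was not tested. Sema3f, a secreted ligand of neuropilin 2, fell less. It had 86.6, 85.6 and 86.8 CPM in Blue1000, 76.7, 86.5 and 77.1 in Blue200, 65, 72.8 and 70.5 in Hal1000, 93.5, 107 and 118 in Hal200, 82.5, 82.1 and 73.0 in LED1000 and 85.9, 76.7 and 66.5 in LED200, against 152, 145 and 131 in control. All 18 light libraries lay below all control libraries, with a log2 fold change of -0.80 ± 0.069 (adjusted p = 8.3e-09, edgeR). Sema4b, a transmembrane semaphorin, was the other one to fall, by 0.52 ± 0.066 on the log2 scale (adjusted p = 1.6e-06, edgeR), in every light group but Hal200.

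Sema3c, a secreted semaphorin that signals through neuropilins and plexins, rose most. It had 25.3, 34.7 and 32.0 CPM in Blue1000, 22.2, 34.5 and 25.5 in Blue200, 20, 46.6 and 34.9 in Hal1000, 8.11, 7.28 and 5.26 in Hal200, 33.8, 33.6 and 31.4 in LED1000 and 53.1, 19.1 and 36.4 in LED200, against 5.84, 4.69 and 9.63 in control. The 15 libraries outside Hal200 were above every control library, and the Hal200 libraries overlapped control. The log2 fold change over all light was 1.88 ± 0.31 (adjusted p = 7.3e-05, edgeR), and in Hal200 it was 0.03 ± 0.37 (adjusted p = 0.97, edgeR). Summed markers of pigment epithelium (12 genes, at most 1 at 0) were 525 to 1778 CPM over the Blue1000, Blue200, Hal1000, LED1000 and LED200 libraries and 94.26 to 190.7 CPM in Hal200, against 93.78 to 285.7 CPM in control. In LED200 these sums were 1711, 525 and 1226 CPM in the library order given for Sema3c, and in Hal1000 559.1, 1679 and 1098 CPM. The order of the 3 libraries was the same for Sema3c and the pigment epithelium sum in Blue1000, Hal1000 and LED200, and differed in Blue200, Hal200, LED1000 and control. In Blue1000 and Hal1000 replicate 3 was an in-between library. Its middle place was thus largely given in those groups, which leaves only the order of replicates 1 and 2. In control replicate 3 was highest in both, and only replicates 1 and 2 changed places. Orders of 3 libraries, some with close values as in LED1000, say little either way. The part of these markers in the rise of Sema3c was not tested.

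Sema4a, a transmembrane semaphorin without which photoreceptors degenerate in the mouse, rose in each of the 6 light groups. Its mean was 85.2 ± 1.99 CPM in Blue1000, 82.6 ± 2.72 in Blue200, 87.8 ± 2.30 in Hal1000, 67.2 ± 3.60 in Hal200, 79.8 ± 1.13 in LED1000 and 83.5 ± 6.82 in LED200, against 54.6 ± 3.44 in control (SD, n = 3 each). All 18 light libraries were above control, with a log2 fold change of 0.56 ± 0.054 (adjusted p = 3.4e-08, edgeR) that was 0.18 (adjusted p = 0.082) when libraries were scaled to the bipolar list.

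**Figure D2:**
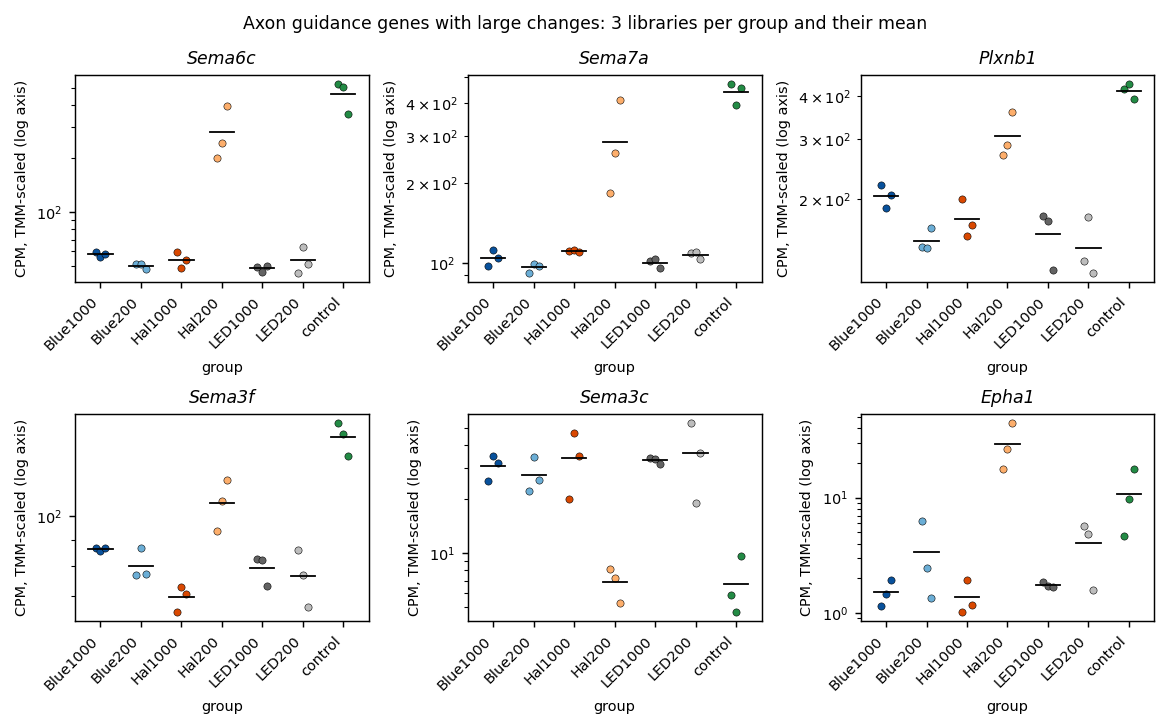
CPM (log axis, TMM-scaled) of 6 genes in each library by group, with the group mean as a bar. Sema6c, Sema7a, Plxnb1 and Sema3f are lower in all light groups, with Hal200 nearest to control; Sema3c is higher in 5 light groups with Hal200 level with control, and Epha1 is highest in Hal200.

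The other rising semaphorins changed by less than 2-fold. Sema5a, which limits the spread of retinal neurites in mouse development, had 106 to 201 CPM in light (median 174), against 80.1 to 114 CPM in control, with 17 of 18 light libraries above control and a log2 fold change of 0.78. Sema6d had 13.7 to 24.4 CPM in light (median 20), against 10.9 to 13.2 in control, with no overlap (log2 fold change 0.72). Sema3a, the ligand of neuropilin 1 that collapses growth cones, had 17.2 to 35.2 CPM in light (median 29.9), against 16.9 to 17.7 in control. Only 1 light library, in Hal200, overlapped control in Sema3a, and the log2 fold change was 0.71. Sema3b, a secreted class 3 semaphorin, had 22.7, 34.0 and 27.5 CPM in Blue1000, 26.6, 25.8 and 11.5 in Blue200, 17.3, 22.6 and 19.6 in Hal1000, 4.79, 8.47 and 3.97 in Hal200, 21.6, 21.4 and 24.5 in LED1000 and 35.9, 7.25 and 17.6 in LED200, against 4.47, 4.09 and 20.9 in control. Its libraries too were in the order of the pigment epithelium sums in Blue1000, Hal1000 and LED200, and not in Blue200, Hal200, LED1000 and control. The limits set by orders of 3 libraries and by the in-between libraries of Blue1000 and Hal1000 hold here as well. Sema3b was not called (log2 fold change 0.85, adjusted p = 0.15, edgeR), and its high control library was replicate 3, one of the lens-rich ones. That library also had the highest pigment epithelium sum of the control group (285.7 CPM, others 93.78 and 108.1). Without the 3 lens-rich libraries the log2 fold change was 1.90 (adjusted p = 0.00096, edgeR), and leaving out 1 library alone gave up to 2.03.

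Among ephrins, Efna3 and Efnb3 rose without overlap between light and control. Under scaling to the bipolar list no ephrin was called higher (Efna3 0.26, adjusted p = 0.09, and Efnb3 0.24, adjusted p = 0.086, edgeR). Efna3 averaged 17.2 ± 1.25 CPM in Blue1000, 17.7 ± 1.17 in Blue200, 19.4 ± 1.88 in Hal1000, 14.5 ± 0.266 in Hal200, 17.2 ± 0.679 in LED1000 and 19.3 ± 1.02 in LED200, against 11.2 ± 0.717 in control (SD, n = 3 each), with a log2 fold change of 0.65 ± 0.077 (adjusted p = 6.7e-07, edgeR). Efnb3 had 33.8 to 53.3 CPM in light (median 46.1), against 26.7 to 33.0 in control, a log2 fold change of 0.62 ± 0.081 (adjusted p = 2e-06, edgeR). Efna5, which repels temporal retinal axons in the midbrain of the mouse and chick, had 54.5 to 86.9 CPM in light (median 72.7), against 46.6 to 61.1 in control. Its log2 fold change was 0.48 ± 0.075 (adjusted p = 1.8e-05, edgeR), with 15 of 18 light libraries above control. Efnb2, which also marks arterial endothelium, had 16.1 to 36.3 CPM in light (median 27.0), against 14.4, 15 and 28.7 in control, so that the groups overlapped through control replicate 3. Its log2 fold change of 0.45 became 0.84 without the lens-rich libraries, and the call was lost without control replicate 1 or 2. Efna2 was the one ephrin to fall (-0.41 ± 0.14, adjusted p = 0.015, edgeR), with 6.33 to 10 CPM in light (median 7.66), against 7.16 to 12 in control. It lost its call without control replicate 1 (-0.27) or 2 (-0.34).

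Slit2, the main Slit of this tissue at a mean of 24.0 FPKM over the 21 libraries, had 144 to 248 CPM in light (median 197), against 132 to 148 in control. It rose by a log2 fold change of 0.45 ± 0.084 (adjusted p = 0.00012, edgeR), with 16 of 18 light libraries above control, and by 0.06 (adjusted p = 0.35) under scaling to the bipolar list. Slit1 and Slit3 were not called, and in both control replicate 3 was the high control library. Slit1 had 38.7 to 56.2 CPM in Hal200 and 39.7 to 125 CPM in the other light groups, against 35.5, 34.6 and 94.9 in control. Without the 3 lens-rich libraries both were higher, by 0.77 for Slit1 (adjusted p = 0.0072) and 1.05 for Slit3 (adjusted p = 0.0028) on the log2 scale in edgeR. That setting also drops control replicate 3, and leaving out 1 library alone gave up to 0.84 for Slit1 and 1.09 for Slit3. The lens-rich Blue200 replicate 1 also had the highest Slit3 of its group (31.4 CPM, others 25.6 and 29.6). So did the lens-rich LED200 replicate 1 (42.8 CPM, others 23.2 and 26.0). Slit1 was highest of its group in LED200 replicate 1 (125 CPM) but lowest in Blue200 replicate 1 (63.8 CPM). These fits do not tell lens content and that control library apart, and the part of lens RNA was not tested. Among netrins, Ntn4, a basement membrane netrin, had 59.2 to 117 CPM in light (median 92.5), against 54.0 to 78.7 in control (0.53 ± 0.11, adjusted p = 0.00043, edgeR). Ntn1, the classical attractant, was scarce. It had 5, 6.48 and 5.65 CPM in Blue1000, 3.03, 4.35 and 4.11 in Blue200, 6.19, 4.38 and 4.35 in Hal1000, 5.63, 3.29 and 1.52 in Hal200, 3.42, 2.68 and 2.37 in LED1000 and 4.91, 3.18 and 4.76 in LED200, against 2.22, 1.65 and 2.50 in control. Its log2 fold change was 0.94 ± 0.28 (adjusted p = 0.0069, edgeR), with 16 of 18 light libraries above control, and its call was lost without control replicate 2 (0.79, adjusted p = 0.054). Ntn5 rose by 0.64 ± 0.14 (adjusted p = 0.00085, edgeR), and Ntn3 was not called. No netrin was called under scaling to the bipolar list.

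Among the receptors, the plexins were split. Plxnb1, the receptor of Sema4d, had 220, 188 and 206 CPM in Blue1000, 145, 144 and 165 in Blue200, 200, 156 and 168 in Hal1000, 270, 288 and 360 in Hal200, 178, 173 and 124 in LED1000 and 132, 177 and 122 in LED200, against 420, 434 and 392 in control. All 18 light libraries were below all control libraries, and the log2 fold change was -1.18 ± 0.10 (adjusted p = 1.4e-08, edgeR), called lower in every light group but Hal200 (-0.44, adjusted p = 0.06). Sema4d itself was higher, with 36.4 to 56.9 CPM in light (median 48.9), against 31.9 to 33.4 in control (log2 fold change 0.53). For Sema7a the ligand fell while its receptor Plxnc1 had 27.8 to 46.4 CPM in light (median 37.4), against 23.0 to 27.3 in control (0.53 ± 0.10, adjusted p = 0.00018, edgeR). Under scaling to the bipolar list neither Plxnc1 (0.14, adjusted p = 0.24, edgeR) nor Sema4d (0.14, adjusted p = 0.16) was called. Sema7a and Plxnb1 stayed lower under that scaling. Plxna4, a receptor of Sema6a and, with neuropilin 1, of Sema3a, rose by 0.79 ± 0.16 (adjusted p = 0.00031, edgeR), with 98.0, 95.5 and 95 CPM in Blue1000, 50.7, 84.6 and 83.9 in Blue200, 86.4, 68.2 and 73.4 in Hal1000, 65.4, 58.5 and 46.2 in Hal200, 77.3, 61.7 and 42.3 in LED1000 and 84.4, 81.8 and 89.1 in LED200, against 41.2, 43.3 and 43.1 in control. LED1000 replicate 3 lay within the control range. Plxna1 rose by 0.40 ± 0.13 (adjusted p = 0.011, edgeR), but not without control replicate 1 (0.34, adjusted p = 0.076) and not under scaling to the bipolar list (-0.002). Plxna2, Plxna3, Plxnb2 and Plxnb3 were not called; Plxnb2 was the highest plexin at a mean of 32.5 FPKM, and Plxnb3 was near the floor of detection at a mean of 12.2 counts.

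The Eph receptors held the receptors that rose most. Ephb3, which with Ephb2 guides ganglion cell axons to the optic disc in the mouse, had 31.9, 33.8 and 32.6 CPM in Blue1000, 29.7, 25.6 and 27.3 in Blue200, 31.5, 27.3 and 25.5 in Hal1000, 19.2, 23.1 and 16 in Hal200, 25.6, 26.8 and 25.9 in LED1000 and 26.9, 25.6 and 18.8 in LED200, against 14, 12.7 and 15.9 in control. All 18 light libraries were above control (log2 fold change 0.87 ± 0.11, adjusted p = 2e-06, edgeR). Epha4, a receptor for ephrins of both classes, averaged 119 ± 7.28 CPM in Blue1000, 98.9 ± 15.5 in Blue200, 105 ± 5.01 in Hal1000, 80.4 ± 12.2 in Hal200, 89.4 ± 6.55 in LED1000 and 110 ± 5.13 in LED200, against 56.5 ± 1.39 in control (SD, n = 3 each). It too was above control in all 18 light libraries (0.82 ± 0.088, adjusted p = 1.6e-07, edgeR). Ephb6, a receptor with no active kinase, had 17.4 to 30.6 CPM in light (median 23.3), against 12.9 to 15.1 in control (0.80 ± 0.12, adjusted p = 1e-05, edgeR). Ephb2 had 103 to 188 CPM in light (median 159), against 86.3 to 97.2 in control (0.75 ± 0.10, adjusted p = 4.1e-06, edgeR). Epha5, graded across the retina in mapping, had 37.0 to 72.6 CPM in light (median 60.7), against 33.8 to 37.0 in control, a log2 fold change of 0.71.

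Epha1 was the one Eph receptor to fall. It had 1.16, 1.47 and 1.93 CPM in Blue1000, 6.24, 2.46 and 1.34 in Blue200, 1.02, 1.93 and 1.17 in Hal1000, 17.7, 26.2 and 44.2 in Hal200, 1.86, 1.73 and 1.67 in LED1000 and 5.65, 4.88 and 1.57 in LED200, against 4.62, 9.75 and 17.6 in control. The Hal200 libraries were above every other library, while those of Blue1000, Hal1000 and LED1000 were below every control library. The log2 fold change over all light was -1.66 ± 0.38 (adjusted p = 0.0011, edgeR), an average over -1.40 to -2.96 in 5 groups, each called, and 1.46 ± 0.55 in Hal200, which was not called (adjusted p = 0.094). Among the remaining receptors, Robo2, which guides ganglion cell axons by Slit signals in the mouse, had 197, 198 and 199 CPM in Blue1000, 140, 188 and 213 in Blue200, 197, 199 and 196 in Hal1000, 168, 141 and 146 in Hal200, 198, 170 and 132 in LED1000 and 205, 179 and 216 in LED200, against 116, 123 and 105 in control. All 18 were above control (0.66 ± 0.11, adjusted p = 3.7e-05, edgeR). Robo1 rose by 0.63 ± 0.15 (adjusted p = 0.001, edgeR), with 14 to 29.8 CPM in light (median 23.8), against 12.7 to 16.8 in control, and Robo3 was not called. Under scaling to the bipolar list Robo1 lost its call (0.23, adjusted p = 0.083, edgeR).

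The Unc5 receptors carry the repulsive netrin signal. Unc5a had 48.5 to 71.5 CPM in light (median 66.0), against 43.1 to 46.8 in control, with no overlap (0.51 ± 0.068, adjusted p = 2.9e-06, edgeR). Unc5b, which is also found on endothelial cells, rose by 0.63 ± 0.10 (adjusted p = 2.6e-05, edgeR), with 22.8 to 46.8 CPM in light (median 38.4), against 21.3 to 27.8 in control. Under scaling to the bipolar list neither Unc5a (0.12, adjusted p = 0.19, edgeR) nor Unc5b (0.24, adjusted p = 0.072) was called. Unc5c rose by 0.24 ± 0.098 (adjusted p = 0.042, edgeR), a call that was lost when any of 12 libraries was left out, with adjusted p of 0.052 to 0.23, and its log2 fold change was -0.15 under scaling to the bipolar list. Unc5d was not called. Leaving out each of the 21 libraries in turn kept the calls of 37 of the 47 genes. The 10 that lost a call at least once were Efna1, Efna2, Efnb2, Epha3, Ntn1, Plxna1, Plxnd1, Sema3g, Sema5b and Unc5c, and each of them lost it without at least 1 of the control libraries. Without the 3 lens-rich libraries 46 of the 47 calls remained, Sema3g losing its call, and 8 more genes were higher, namely Efnb1, Epha2, Ephb4, Plxnb2, Sema3b, Slit1, Slit3 and Unc5d. Control replicate 3 is among those left out, so this fit does not tell lens content and that control library apart. Efnb1, Epha2, Ephb4, Plxnb2, Sema3b and Slit3 were highest in the lens-rich library within each of Blue200, LED200 and control. Slit1 was so in LED200 and control only, and Unc5d in control only. The part of lens RNA in these genes was not tested.

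Compared with control one group at a time, 5 light groups gave like counts and Hal200 a smaller one. The 6 comparisons share the 3 control libraries and so are not independent. Blue1000 had 49 of 65 genes called (43 higher, 6 lower), against 54.3% of all genes called (27.4% higher, 26.9% lower). Blue200 had 43 called (36 higher, 7 lower), against 53.5% of all genes (27.7% higher, 25.8% lower). Hal1000 had 41 called (34 higher, 7 lower), against 54% of all genes (27.3% higher, 26.8% lower). Hal200 had 10 called (7 higher, 3 lower), against 11.9% of all genes (7.25% higher, 4.6% lower). LED1000 had 41 called (34 higher, 7 lower), against 54.5% of all genes (27.7% higher, 26.8% lower), and LED200 had 41 called (35 higher, 6 lower), against 52.2% of all genes (26.5% higher, 25.7% lower). Under scaling to the bipolar list the split was 13 higher and 10 lower in Blue1000 (7.39% of all genes higher, 49.3% lower), 13 and 12 in Blue200 (9.27%, 40.9%), and 14 and 12 in Hal1000 (9.54%, 45.1%). It was 3 and 3 in Hal200 (1.42% of all genes higher, 3.27% lower), 17 and 12 in LED1000 (13.7%, 33.3%), and 7 and 13 in LED200 (4.49%, 51.4%). Sema6c, Sema7a and Sema3f were lower in all 6 groups, as were 4.29% of all genes. Sema4a, Efna3, Epha4, Ephb3 and Ephb6 were higher in all 6, as were 6.51% of all genes. Called higher in every group except Hal200 were 24 of the 65 (36.9%), against 12.7% of all genes.

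**Figure D3:**
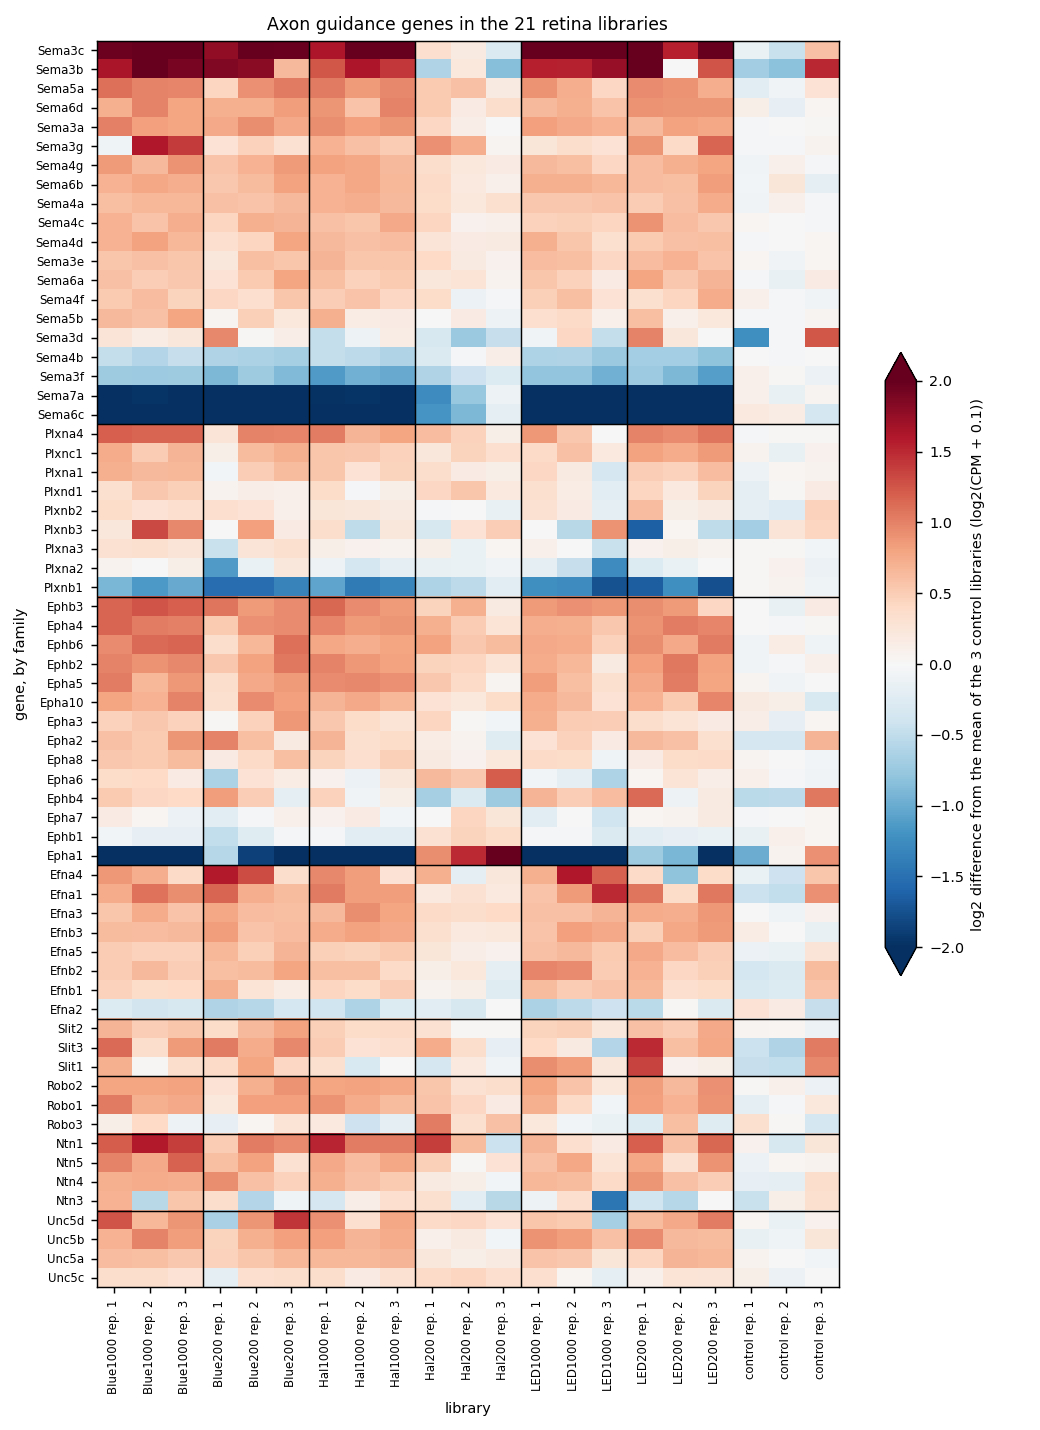
Log2 difference of each of the 65 genes in each of the 21 libraries from the mean of the 3 control libraries (log2 of CPM plus 0.1; colours end at 2 and -2). The 15 libraries outside Hal200 are red in most rows and blue in Sema6c, Sema7a, Plxnb1 and Epha1; the Hal200 columns are paler and control replicate 3 is red in Sema3b, Slit1, Slit3 and Ephb4.

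In Hal200 most of these genes stood at intermediate levels, as did most genes called over all light. The Eph receptors Epha1, Epha6, Epha7 and Ephb1 had their highest group mean there, and so did Robo3 and Unc5c. How many of all genes had their highest mean in Hal200 was not counted. The Hal200 mean lay between the control mean and the means of all 5 other light groups for 32 of the 40 genes that rose over all light (80%, against 75.6% of all genes called higher) and 6 of the 7 that fell (85.7%, against 83.4%). The contrast that chose these genes includes the Hal200 libraries. The 10 genes called in Hal200 against control rested on single libraries, since 1 was called without Hal200 replicate 1, 3 without control replicate 1 and 5 without control replicate 2, and 0 were called when only Hal200 and control entered the edgeR fit, where 25 had an unadjusted p under 0.05. DESeq2 called 15. Epha4 rose by 0.51 ± 0.11 (adjusted p = 0.0063, edgeR; 0.40 with adjusted p = 0.059 without Hal200 replicate 1). Ephb6 rose by 0.66 ± 0.15 (adjusted p = 0.0084, edgeR; 0.58 with adjusted p = 0.066 without that library). Sema3f fell by 0.43 ± 0.096 (adjusted p = 0.0086, edgeR), but not without Hal200 replicate 1 (-0.34, adjusted p = 0.089) or control replicate 1 (-0.38, adjusted p = 0.059). Sema4a rose by 0.30 ± 0.067 (adjusted p = 0.0091, edgeR), but not without Hal200 replicate 1 (0.26, adjusted p = 0.069) or control replicate 1 (0.26, adjusted p = 0.06). Efna3 rose by 0.38 ± 0.096 (adjusted p = 0.017, edgeR), with adjusted p of 0.059 to 0.08 without Hal200 replicate 1, control replicate 1 or control replicate 2.

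Epha6, an Eph receptor graded across the mouse retina, had 38.4, 39.3 and 33.4 CPM in Blue1000, 19.2, 36.6 and 33.2 in Blue200, 31.8, 27.5 and 34.9 in Hal1000, 46.9, 43.4 and 69.1 in Hal200, 28.6, 26.4 and 19.3 in LED1000 and 30.6, 36.1 and 32.8 in LED200, against 32.0, 29.1 and 28.4 in control. The 3 Hal200 libraries were above all others. Epha6 was higher in Hal200 than in control (0.83 ± 0.20, adjusted p = 0.015, edgeR), with 0.58 (adjusted p = 0.052) without Hal200 replicate 3 and 0.82 (adjusted p = 0.066) without control replicate 2, and it was not called in the other 5 groups, where the log2 fold change was -0.27 to 0.31. Ephb1, which sends ganglion cell axons to the same side at the mouse optic chiasm, had 30.4, 33.6 and 31.9 CPM in Hal200, 17.5 to 24.3 CPM in the other light groups, and 22.3, 26.5 and 25.2 CPM in control. It too was higher in Hal200 than in control (0.37 ± 0.11, adjusted p = 0.035, edgeR).

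Many of these genes differed between the 2 levels of halogen light, while no difference between levels was detectable under blue or LED light in the edgeR test. In Hal1000 against Hal200, 34 of 65 genes were called (25 higher, 9 lower), against 34.9% of all genes (16.5% higher, 18.4% lower). The 9 lower were Sema6c (-2.39 ± 0.20, adjusted p = 6.6e-08, edgeR), Sema7a (-1.36 ± 0.18, adjusted p = 9.3e-06), Sema3f (-0.61 ± 0.096, adjusted p = 5.9e-05), Epha1 (-4.42 ± 0.64, adjusted p = 4.5e-05), Sema4b (-0.48), Plxnb1 (-0.81), Epha6 (-0.76), Ephb1 (-0.54) and Robo3 (-0.79). The rises were led by Sema3c (2.30 ± 0.37, adjusted p = 0.00013, edgeR) and Sema3a (0.69 ± 0.10, adjusted p = 2.4e-05, edgeR), and 13 of the 25 were semaphorins. No plexin was among them. Under scaling to the bipolar list 2 genes were higher (Sema3c and Sema3a) and 13 lower, against 2.13% and 34.6% of all genes, with the median of all genes shifted by -0.32.

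Blue1000 against Blue200 had 0 of 65 genes called by edgeR, DESeq2 and limma, against 0.0125% of all genes, and 7 had an unadjusted edgeR p under 0.05. The smallest was that of Plxnb1, with 220, 188 and 206 CPM in Blue1000, against 145, 144 and 165 CPM in Blue200 without overlap between the groups. Its log2 fold change was 0.44 ± 0.15 (adjusted p = 0.85, edgeR). LED1000 against LED200 had 0 called by edgeR and DESeq2, against 0.0687% of all genes (0.05% higher, 0.0187% lower), and 11 with an unadjusted edgeR p under 0.05; limma voom with quality weights called 6. Plxnc1 had 33.3, 38.5 and 29.3 CPM in LED1000, against 44.7, 43.1 and 46.4 CPM in LED200 (-0.41 ± 0.13, adjusted p = 0.24, edgeR). Efna4, a scarce ephrin, had a log2 fold change of 1.20 ± 0.43 (adjusted p = 0.27, edgeR). Under scaling to the bipolar list 11 genes were higher and 0 lower at the higher LED level, against 23.5% and 0.206% of all genes, with the median of all genes shifted by 0.34.

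The level effects themselves differed. The halogen effect exceeded the mean of the blue and LED effects, or fell below it, in 27 of 65 genes (19 higher, 8 lower; edgeR interaction test), against 24.8% of all genes (11.6% higher, 13.2% lower). The difference was -2.42 ± 0.24 for Sema6c (adjusted p = 9.8e-07, edgeR), -1.37 ± 0.21 for Sema7a (adjusted p = 0.00012), -1.10 ± 0.18 for Plxnb1 (adjusted p = 0.00021) and -0.69 ± 0.12 for Sema3f (adjusted p = 0.00023). It was 0.66 ± 0.12 for Sema3a (adjusted p = 0.00055, edgeR) and 0.55 ± 0.10 for Unc5a (adjusted p = 0.00065). Under scaling to the bipolar list the split was 1 higher and 14 lower, against 0.843% and 35.3% of all genes, and Sema3a (0.24, adjusted p = 0.2) and Unc5a (0.12, adjusted p = 0.5) were not called. Without the 3 libraries that lay between their mates, 16 genes were called.

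**Figure D4:**
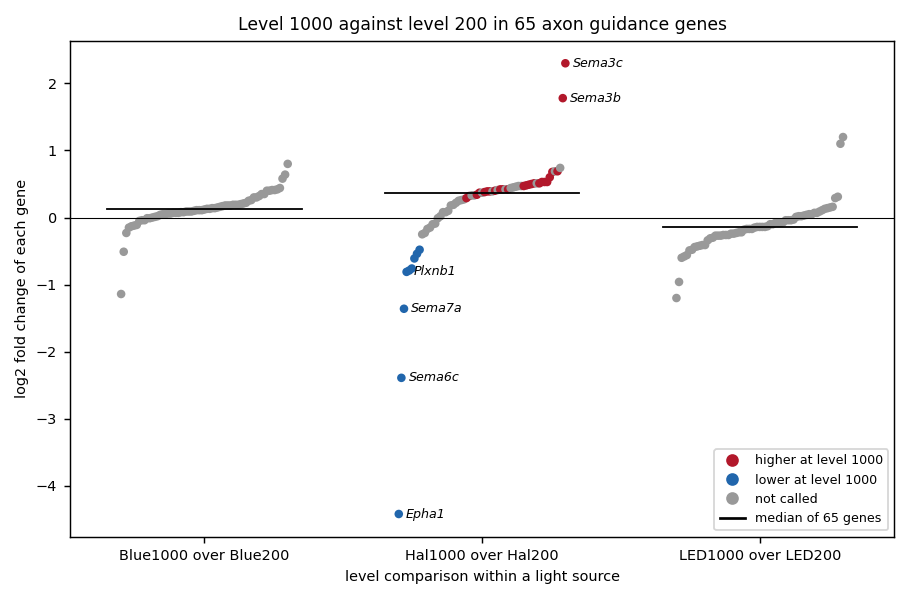
Log2 fold change of each of the 65 genes for level 1000 over level 200 within blue, halogen and LED light, sorted within each source, with the median as a bar. Coloured points, called in the edgeR test, appear only for halogen light, where 25 genes are higher and 9 lower.

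Between light sources at one level, Hal200 differed from Blue200 and LED200 in 41 of 65 genes (9 higher, 32 lower), against 38.6% of all genes (20.3% higher, 18.3% lower). The 9 higher were the 9 that were lower in Hal1000 than in Hal200, a comparison that shares the Hal200 libraries. Sema6c was higher by 2.45 ± 0.16 (adjusted p = 1.6e-09, edgeR), Sema7a by 1.48 ± 0.14 (adjusted p = 2.3e-07), Plxnb1 by 1.05 ± 0.12 (adjusted p = 2.1e-06), Sema4b by 0.62 ± 0.076 (adjusted p = 2.6e-06) and Ephb1 by 0.58 ± 0.093 (adjusted p = 6.6e-05). Sema3a was lower, by -0.60 ± 0.089 (adjusted p = 2.8e-05, edgeR). Under scaling to the bipolar list the split was 15 higher and 1 lower, against 42.1% and 1.57% of all genes, with the median of all genes shifted by 0.36. Hal1000 against Blue1000 and LED1000 had 0 of 65 called by edgeR and DESeq2, against 0.0125% of all genes, with 2 at an unadjusted edgeR p under 0.05. The smallest p was that of Sema3f (-0.25 ± 0.084, adjusted p = 0.8, edgeR), which limma voom with quality weights called (-0.27, adjusted p = 0.014).

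Over the 7 groups, 44 of 65 genes varied in the test of any difference (edgeR), against 54.5% of all genes. Among group means the widest range of log2 CPM was that of Epha1 (4.42), followed by Sema6c (3.26), Sema3c (2.43), Sema3b (2.29) and Sema7a (2.19). Levels per length differed widely between the 65, so that small fold changes rest on different depths. The order of the first ones turned between groups. Sema7a, at 101 FPKM in Hal200 and 147 in control, was above Ntn4, at 29.2 and 26.3, while in the other 5 light groups Ntn4 had the higher mean, 46.0 to 50.4 against 38.3 to 43.7 FPKM. Averaged over the 21 libraries, whose groups differ, Sema7a stood at 64.9 FPKM, Ntn4 at 42.1, Plxnb2 at 32.5, Slit2 at 24.0, Sema4a at 22.7, Efnb2 at 22.0 and Plxnb1 at 21.7. Unc5a (16.5), Epha8 (16.1) and Robo2 (15) were the highest of their families. The range of Efnb2 over libraries, 10.5 to 32.0 FPKM, overlapped those of Sema4a (13.1 to 27.1) and Slit2 (15 to 32.0). Ntn1 at 0.689, Sema3d at 0.658 and Plxnb3 at 0.058 FPKM were the lowest. The 65 genes together took 0.413 ± 0.00557% of counts in Blue1000, 0.378 ± 0.0342% in Blue200, 0.383 ± 0.0129% in Hal1000, 0.345 ± 0.00551% in Hal200, 0.360 ± 0.0397% in LED1000 and 0.392 ± 0.0107% in LED200, against 0.334 ± 0.0112% in control (SD, n = 3 each). The groups overlapped, since LED1000 replicate 3 (0.315%) was below every control library (0.326 to 0.347%) and Blue200 replicate 1 and Hal200 replicate 2 (0.339% each) lay among them. LED1000 replicate 3 and Blue200 replicate 1 were the lowest of the 18 light libraries in Plxna2, with 55.5 and 60.5 CPM, in Unc5d, with 7.50 and 7.63 CPM, and in Plxna1, with 80.3 and 96.9 CPM, against 123 to 142, 10.9 to 12.8 and 94.0 to 106 CPM in control.

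Co-receptors and inner parts of the pathway, a list of 80 genes outside the 65, were called in 75% (48 higher, 12 lower) over all light, against 58.6% of all genes. Under scaling to the bipolar list the split was 30 higher and 26 lower, against 10.7% and 47.8% of all genes. The neuropilins Nrp1 (0.76, adjusted p = 0.00022, edgeR) and Nrp2 (0.83, adjusted p = 1.3e-05), co-receptors of class 3 semaphorins, and the netrin receptor Dcc (0.72, adjusted p = 0.00033) were higher, while Neo1, a related netrin and RGM receptor, was not called (0.18, adjusted p = 0.054). Nrp2 had 31.2 to 60.5 CPM in light (median 48.7), against 26.3 ± 2.74 CPM in control. Under scaling to the bipolar list Nrp1 (0.36), Nrp2 (0.44) and Dcc (0.33) stayed higher, while Neo1 was called lower (-0.21, adjusted p = 0.0088, edgeR). The rises with the smallest adjusted p were Chn1 (0.69 ± 0.052, adjusted p = 1.3e-09, edgeR), Cxcl12 (0.72 ± 0.063, adjusted p = 1.1e-08) and Nell2 (0.73 ± 0.067, adjusted p = 2.2e-08). Each was also called higher under scaling to the bipolar list. The falls included Dpysl3 (-1.80 ± 0.094, adjusted p = 7.8e-12, edgeR), with 55.5 to 291 CPM in light (median 73.7), against 287 to 326 CPM in control. Dpysl3 and Dpysl5 (-0.72) belong to the collapsin response mediators that carry semaphorin signals to microtubules, whose best known member Dpysl2 was higher (0.59). Dpysl4 (0.45) and Crmp1 (0.36) of that family were higher too. Under scaling to the bipolar list Dpysl4 (0.07) and Crmp1 (-0.02) were not called. Limk2, a kinase that acts on cofilin and actin, fell by 0.98 ± 0.074 (adjusted p = 1.3e-09, edgeR), while Limk1 rose by 0.56. Dpysl2, Dpysl4, Crmp1 and Limk1 were named after their values were seen.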

How the data were processed

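Retinal RNA was sequenced in 21 libraries, 3 in each of 7 groups taken from the labels. The kit was VAHTS Universal V6 (per the labels' protocols), and the submitters' processing notes name R 3.2.0 and no other tool. Which aligner, counter, strand setting and build were used is not given in the sources used here, so a gene and an overlapping or antisense gene may share reads, and near-identical copies may be uncertain. The authors deposited raw counts and FPKM for 19099 genes; the deposited FPKM equal the count per library total and a whole gene length for all 19099 genes, within 0.001 bases. The FPKM were used for levels per length and in an alternative test.

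Deposited counts were tested with edgeR 4.0.16 in R 4.3.3 (quasi-likelihood test, robust fit, TMM scaling, 1 mean per group over all 21 libraries). Genes passed a filter of a minimum count of 10 and a minimum total of 15 (16006 genes), and p-values were adjusted over these by the Benjamini-Hochberg method, with a call at 0.05. A value over all light averages the 6 light groups and subtracts control. A floor of 3 counts is 0.0847 to 0.0987 CPM per library and covers counting error only. Other settings tried were DESeq2 1.42.0, edgeR with DESeq2 size factors, scaling to the bipolar list, no filter, only the compared groups, a replicate block, limma 3.58.1 on log2(FPKM + 1), log2(FPKM + 0.1) or voom weights, and leaving out libraries. Within groups, no pair of libraries agreed within sampling noise (mean chi-square per gene of 7.93 or more); pairs across groups were not compared.

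Genes given with fold change, error and adjusted p were up to 4 called per family over all light and up to 6 per other comparison (where none was called, 3), taken by smallest p. To these were added the 12 with the widest range of group means among those called in the test of any difference. The highest of each family and a fixed set of retinal wiring genes were added too. Some were chosen after their values were seen (Sema3b, Slit1, Slit3, Sema4d, Sema5a, Sema6d, Sema4b over all light, Ephb1 against control). The members and all lists were chosen with earlier results of these data known.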

Additional observations from a re-analysis of the deposited data

Results flagged for a closer look

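The effect of level (1000 over 200) differed between halogen light and the mean of blue and LED light in 27 of 65 guidance genes by the edgeR interaction test, against 24.8% of all genes. The difference on the log2 scale was -2.42 for Sema6c, -1.37 for Sema7a, -1.10 for Plxnb1 and -0.69 for Sema3f, all of them lower at Hal1000 than at Hal200. It was 0.66 for Sema3a and 0.55 for Unc5a. The summed rod markers were 828.7 to 1038 CPM in Hal1000 and 36450 to 65970 CPM in Hal200, and their part in these differences was not tested.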

How the results depend on the processing

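Scaling to the bipolar list moved most counts of called genes, to 23 in Blue1000, 25 in Blue200, 26 in Hal1000, 6 in Hal200, 20 in LED200 and 25 over all light, each against control. It gave 15 for Hal1000 against Hal200, 11 for LED1000 against LED200, 16 for Hal200 against Blue200 and LED200, 15 for the difference in level effects and 29 for any difference. It reversed Plxna1 (-0.002), Unc5c (-0.15) and Epha6 (-0.21) over all light and Epha4 between LED levels (0.04), and of 91 single results named it left 65 with their direction and call. Hal200 against control gave 0 calls with only the compared groups, 21 and 22 by limma on log2(FPKM + 1) and log2(FPKM + 0.1), 26 by voom with quality weights, 16 without the lens-rich libraries and 6 without the 3 in-between libraries. Voom gave 6 calls between LED levels and 1 for Hal1000 against Blue1000 and LED1000, and the difference in level effects gave 16 without the in-between libraries. Beyond the construction of each alternative, the cause was not tested.

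Leaving out 1 library at a time gave 42 to 52 calls in Blue1000, 37 to 49 in Blue200, 38 to 47 in Hal1000, 1 to 15 in Hal200, 35 to 44 in LED1000, 36 to 48 in LED200 and 38 to 51 over all light. It gave 26 to 39 for Hal1000 against Hal200, 28 to 44 for Hal200 against Blue200 and LED200, 19 to 34 for the difference in level effects, 42 to 53 for any difference, and 0 throughout between blue levels, between LED levels and for Hal1000 against the other sources. Of the 91 single results none reversed and 10 lost a call at least once. Replicate numbers showed no pairing of libraries on average. Same-numbered libraries of different groups correlated at -0.373 to 0.402 over 63 pairs (median 0.00531), against a median of 0.00271 for other numbers. Of 21 libraries 9 correlated best with their own number, and a pairing of only some libraries was not tested. With a replicate block 45 genes were called over all light, 8 in Hal200 against control and 31 for Hal1000 against Hal200, and of the single results only Unc5c over all light lost its call (0.24, adjusted p = 0.059, edgeR). Genes near the floor, such as Plxnb3, limit what can be seen at this depth.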
